A study of Mus musculus with 12 samples.

Results

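The genes described here are those of the mitochondrial genome, the small circular DNA that mouse mitochondria carry apart from the nuclear chromosomes. They were chosen by name, as every gene whose mouse symbol begins with mt-. The GENCODE M21 annotation holds 37 of them, which are 13 protein-coding, 2 ribosomal RNA (rRNA) and 22 transfer RNA (tRNA) genes. Of these, 33 were among the 30803 genes listed for the GSH and WT libraries, and 0 were among the 17558 gene symbols listed for the Cas9 and Ctrl libraries. The tRNA genes mt-Tf, mt-Tv, mt-Ts1 and mt-Td were the 4 members not analysed here.

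The samples are labelled as cultured 4T1 cells, a mouse mammary carcinoma line, whose RNA was sequenced. The 12 samples fall into 4 groups of 3, named by genotype as GSH, WT, Cas9 and Ctrl. GSH was set against WT and Cas9 against Ctrl. The labels give every group the same culture treatment, do not expand GSH, name no gene targeted with Cas9, and do not say whether samples of a group came from separate cultures, so that the spread behind each p-value may be technical. Ctrl 1 and Ctrl 2 were not analysed here.

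Both strands of mitochondrial DNA are transcribed into long precursors. The tRNAs lie between most of the other genes, and their excision frees the rRNAs and mRNAs, which are then stabilised or degraded one by one. The proteins are subunits of respiratory complexes I, III and IV and of ATP synthase, whose other subunits are encoded in the nucleus, and the rRNAs and tRNAs serve the translation of these proteins inside the organelle. Pieces of mitochondrial DNA have also been inserted into nuclear chromosomes during evolution, where they stand as pseudogenes.

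Such nuclear copies bear on how reads of the members can be counted, and 3 pairs are shown for that reason. The sequences are those of GENCODE M21 transcripts (GRCm38), from 5′ to 3′, and positions are counted from 1 at the first base of each transcript. The first 100 bases of mt-Co3, at chrM:8607-8706 on the + strand, were the same as those of Gm28437 at chr1:24613872-24613971 on the - strand. Over its whole 783 bases Gm28437 had 0 differences from mt-Co3.
mt-Co3: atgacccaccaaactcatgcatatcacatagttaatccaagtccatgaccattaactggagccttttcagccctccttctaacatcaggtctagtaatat
Gm28437: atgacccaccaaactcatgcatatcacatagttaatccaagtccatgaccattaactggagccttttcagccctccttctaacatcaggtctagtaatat
mt-Nd3, at chrM:9459-9558 on the + strand, and Gm28438, at chr1:24613020-24613119 on the - strand, differed at 1 base of 345, T3C, in capitals.
mt-Nd3: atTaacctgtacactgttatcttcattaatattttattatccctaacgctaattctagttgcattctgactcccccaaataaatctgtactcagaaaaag
Gm28438: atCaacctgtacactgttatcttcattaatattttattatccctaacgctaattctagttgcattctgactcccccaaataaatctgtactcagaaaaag
The closest annotated copy of mt-Cytb was more diverged. Bases 2 to 101 of mt-Cytb, at chrM:14146-14245 on the + strand, and of Gm11410, at chr4:80003990-80004089 on the + strand, differed at 5 positions (G14A, C24T, C61T, T66C and C78T, in capitals), and 82 of 1143 bases differed over the whole copy.
mt-Cytb: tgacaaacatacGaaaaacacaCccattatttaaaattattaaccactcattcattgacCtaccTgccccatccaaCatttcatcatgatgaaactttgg
Gm11410: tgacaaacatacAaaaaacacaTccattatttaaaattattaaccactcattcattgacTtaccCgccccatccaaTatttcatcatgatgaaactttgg

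The members were compared with 141730 annotated nuclear transcripts. For 12 members at least 1 nuclear copy was found, with 100 or more aligned bases at 85% identity or more, and 16 of the 21 copies were listed in the GSH and WT table. The share of a gene's 50-base windows that stand unchanged in a nuclear transcript was 100% for mt-Co2, 99.9% for mt-Co3, 99.5% for mt-Atp6, 98.8% for mt-Nd4l and 98.0% for mt-Nd3. It was 62.2% for mt-Nd4 and 51.1% for mt-Co1. These 7 genes lie next to each other in the mitochondrial genome, apart from tRNA genes and mt-Atp8, and their identical or nearly identical copies form a row on chromosome 1 in the same gene order. The share was 8.19% for mt-Nd2, 7.61% for mt-Nd5, 1.04% for mt-Rnr2 and 0% for the other members, mt-Atp8 included. The tRNA genes are 59 to 75 bases long, shorter than the 100 aligned bases required of a copy. Their 0% was thus fixed by the rule, and whether they have nuclear copies was not tested. Only annotated transcripts with such an aligned stretch were compared, so copies without annotation and shorter copies are not in these shares.

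Values are FPKM, which are reads scaled to gene length and to the reads of the library. The steps of the FPKM values gave whole reads for all 33 listed members in every library, within 0.05 read, and library totals of 18531444 to 30168737 reads in GSH and 20297490 to 21954133 reads in WT. The epithelial keratin Krt8 stood at 435 to 463 FPKM in GSH and 343 to 377 FPKM in WT libraries. The epithelial adhesion molecules Epcam and Cdh1 (E-cadherin) lay the other way, Epcam at 282 to 290 FPKM in GSH and 346 to 365 FPKM in WT, and Cdh1 at 203 to 209.9 FPKM in GSH and 219.6 to 230.5 FPKM in WT. Ptprc, which encodes the leukocyte antigen CD45, stood at no more than 0.0405 FPKM in GSH and 0.0407 FPKM in WT. Other leukocyte markers were detected. Cd68 stood at 15.45 to 17.31 FPKM in GSH and 17.32 to 18.81 FPKM in WT, and Csf1r at 1.42 to 1.62 FPKM over both groups. Lyz2 reached 6.44 FPKM in GSH and 1.535 FPKM in WT, and S100a9 2.38 FPKM in GSH and 1.23 FPKM in WT. The remaining listed leukocyte markers reached at most 0.403 FPKM. The summed FPKM of 6 odorant-binding and major urinary protein genes, which mammary cells are not known for, was 434 and 154 in GSH 2 and GSH 3 and 323 in WT 3, against 1.46 in GSH 1 and 1.60 and 6.32 in WT 1 and WT 2. Other foreign transcripts did not follow this split. The muscle gene Acta1 stood at 9.43, 9.79 and 14.19 FPKM in GSH and 9.25, 44.78 and 12.75 FPKM in WT. Of the other muscle genes, Ckm and Mb were also highest in WT 2, and Myh4 was not. The erythroid gene Hbb-bs stood at 4.83, 14.47 and 29.86 FPKM in GSH and 4.21, 17.32 and 2.49 FPKM in WT. For 5 listed transcripts that can vary with RNA quality or library preparation, the GSH and WT libraries did not overlap. Such separation was common, with GSH below WT in 23.5% and above WT in 29% of all 12283 genes tested. The nuclear long RNA Neat1 stood at 50.1 to 51.2 FPKM in GSH and 86.1 to 88.7 FPKM in WT, and Malat1 at 139 to 153.8 FPKM in GSH and 153.9 to 174 FPKM in WT. The histone genes Hist1h1c (6.31 to 6.68 FPKM in GSH, 4.04 to 4.67 FPKM in WT), Hist1h2bc (3.03 to 3.57 FPKM in GSH, 2.21 to 2.86 FPKM in WT) and H1f0 (115 to 126 FPKM in GSH, 88.9 to 99.4 FPKM in WT) lay above WT. The part of any of these in the results was not tested. Values for the members within the 2 sets of libraries with and without odorant-binding and major urinary protein transcripts are given beside the results.

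Mitochondrial transcripts made up a smaller part of the GSH libraries than of the WT libraries. The 33 members took 6.10%, 5.72% and 5.88% of reads in GSH 1 to 3, against 8.48%, 8.32% and 8.17% in WT 1 to 3. The highest GSH share lay below the lowest WT share. The Wilson binomial 95% interval of each share, which covers counting error only, reached at most 0.0120 percentage points to either side. The mean was 5.90% ± 0.188 in GSH and 8.32% ± 0.154 in WT (SD, n = 3 each). Among the libraries rich in odorant-binding and major urinary protein transcripts the shares were 5.72% and 5.88% in GSH and 8.17% in WT, and among the other libraries they were 6.10% in GSH and 8.48% and 8.32% in WT, so that the order was the same in both sets. Without the 7 genes copied over 50% or more of their windows, the members took 3.20% to 3.44% of reads in GSH and 4.46% to 4.62% in WT. In bulk RNA, fewer cells of a kind and less of a transcript per cell cannot be told apart.

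Between GSH and WT, 13 of the 29 tested members passed the threshold as lower in GSH and 0 as higher. These 13 are 44.8% of the members tested, where 16.4% of all 12283 genes tested were called lower and 20.6% were called higher. The test was limma on log2(FPKM + 1) with a Benjamini-Hochberg adjusted p under 0.05 over genes whose FPKM averaged at least 1. The 4 listed members under that minimum, mt-Ti, mt-Tm, mt-Tk and mt-Tg, are all tRNA genes. The median log2 change of the 29 members was -0.42, against 0.02 for all genes tested, and 24 of the 29 lay below 0, as did 45.9% of all genes tested. In 15 members every GSH library lay below every WT library, which is 51.7% of those tested, against 23.5% of all genes, and in 0 members every GSH library lay above. Leaving out each library in turn left 11 to 14 members called, with mt-Te called higher (adjusted p = 0.0437, limma) without GSH 2. Within either set of libraries, where 1 group is a single library, 0 members passed, and the median change was -0.49 in the set with GSH 2, GSH 3 and WT 3 and -0.32 in the other.

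**Figure D1:**
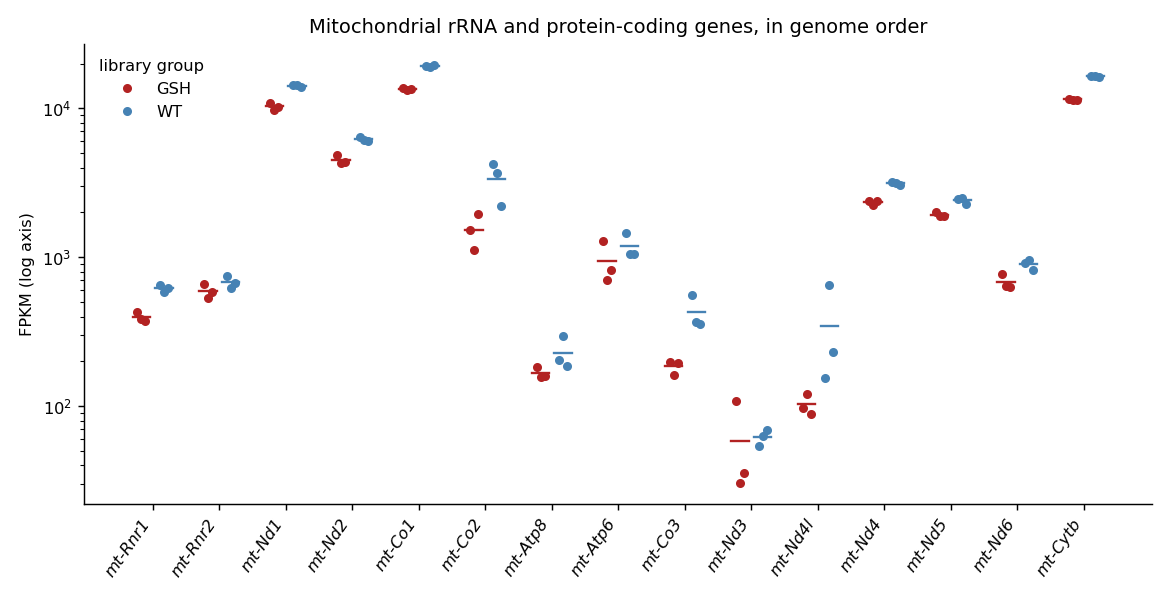
FPKM on a log axis of the 2 rRNA and 13 protein-coding mitochondrial genes in genome order. Points are libraries and short lines are group means (n = 3 each), with GSH in red left of WT in blue; mt-Co1, mt-Cytb and mt-Nd1 stand highest, and the groups overlap for mt-Rnr2, mt-Atp6 and mt-Nd3.

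The plot of FPKM by library shows that the members differ widely in level although many of them come from the same precursor. By mean FPKM, mt-Co1, mt-Cytb and mt-Nd1 ranked 1, 2 and 3 of all genes in both groups. Together with mt-Nd2 they took 81.8% to 83.2% of the mitochondrial reads in GSH and 81.5% to 83.9% in WT, ranges that overlap. At the other end mt-Nd3 averaged 58.2 ± 43.4 FPKM in GSH and 62.2 ± 7.78 FPKM in WT (SD, n = 3 each).

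**Figure D2:**
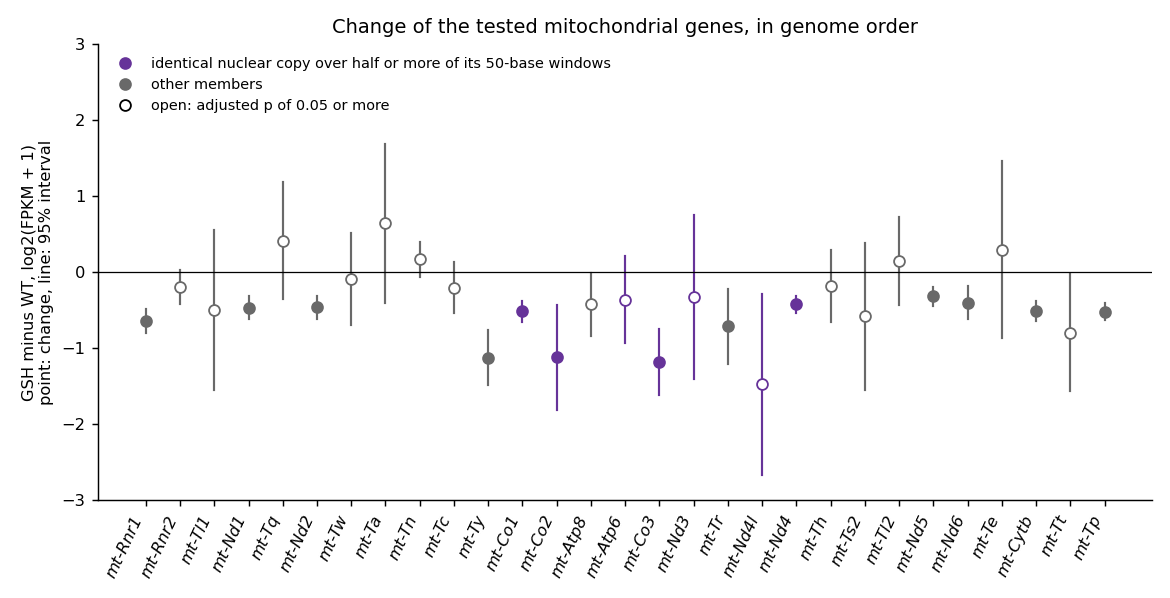
Change of the 29 tested mitochondrial genes in genome order, as GSH minus WT on the log2(FPKM + 1) scale, with 95% intervals as lines. Filled points passed an adjusted p of 0.05 (limma) and purple marks genes with an identical nuclear copy over 50% or more of their 50-base windows; the 13 filled points all lie below 0.

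Of the 2 rRNA genes, which encode the RNAs of the small and large mitochondrial ribosomal subunits, 1 was lower in GSH. Together they took only 2.13% to 2.38% of the mitochondrial reads in GSH and 1.86% to 2.13% in WT, ranges that overlap. How fully the libraries captured rRNA and tRNA was not tested, so these values are not levels of the mature RNAs. mt-Rnr1 (12S rRNA, chrM:70-1024) stood at 429, 387 and 373 FPKM in GSH, against 652, 583 and 620 FPKM in WT. Every GSH library lay below every WT library, with a log2 change of -0.64 (SE 0.065, adjusted p = 0.0019, limma). mt-Rnr2 (16S rRNA, chrM:1094-2675) stood at 658, 537 and 584 FPKM in GSH, against 748, 625 and 668 FPKM in WT. Here the groups overlapped, and the log2 change was -0.20 (95% interval -0.42 to 0.02, adjusted p = 0.137, limma). mt-Rnr2 passed the threshold with voom on recovered reads (-0.22, adjusted p = 0.0456, limma). The ratio of mt-Rnr2 to mt-Rnr1 was 1.53, 1.39 and 1.56 in GSH and 1.15, 1.07 and 1.08 in WT, without overlap.

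The 7 complex I genes encode membrane subunits of NADH dehydrogenase, and 5 of them were lower in GSH. Of the called genes, mt-Nd1, mt-Nd2, mt-Nd4 and mt-Nd5 varied little between replicates. mt-Nd1 (chrM:2751-3707) stood at 10893, 9808 and 10211 FPKM in GSH, against 14434, 14303 and 13990 FPKM in WT, without overlap, a log2 change of -0.47 (SE 0.063, adjusted p = 0.0035, limma). mt-Nd2 (chrM:3914-4951) stood at 4859, 4290 and 4379 FPKM in GSH and 6385, 6128 and 6074 FPKM in WT, a change of -0.46 (SE 0.063, adjusted p = 0.0036, limma). All GSH libraries again lay below all WT libraries.

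mt-Nd4 (chrM:10167-11544) stood at 2400, 2247 and 2385 FPKM in GSH and 3220, 3135 and 3055 FPKM in WT, a change of -0.42 (SE 0.047, adjusted p = 0.0022, limma). The smallest of these changes was that of mt-Nd5 (chrM:11742-13565), with 2003, 1885 and 1904 FPKM in GSH and 2463, 2483 and 2281 FPKM in WT, at -0.32 (SE 0.051, adjusted p = 0.0053, limma). mt-Nd6 is the only protein-coding gene on the other strand, and lies at chrM:13552-14070, where its 3′ end overlaps that of mt-Nd5. It stood at 769, 639 and 631 FPKM in GSH and 909, 956 and 819 FPKM in WT, which did not overlap, with a change of -0.40 (SE 0.093, adjusted p = 0.0179, limma). Its adjusted p was 0.0538 to 0.0593 (limma) when WT 1, WT 2, GSH 2 or GSH 3 was left out. The sources used here do not say whether reads were counted by strand, so reads of mt-Nd6 and of the tRNA genes on its strand cannot be told apart from antisense transcripts of the opposite strand.

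The other complex I genes, mt-Nd3 and mt-Nd4l, are short, are copied almost whole on chromosome 1, and depended on single libraries. mt-Nd3 (chrM:9459-9806) stood at 108, 30.6 and 35.8 FPKM in GSH, against 54.1, 63.1 and 69.5 FPKM in WT. GSH 1 was thus above every WT library and GSH 2 and GSH 3 below every WT library. The change was -0.32 (95% interval -1.40 to 0.75, adjusted p = 0.602, limma) with all libraries and -0.88 (adjusted p = 0.0088, limma) without GSH 1. mt-Nd4l (chrM:9877-10173) stood at 97.8, 121 and 89.0 FPKM in GSH, against 154, 653 and 230 FPKM in WT. The groups did not overlap and WT 2 was highest by far. Its change was -1.47 (SE 0.50, adjusted p = 0.0579, limma) with all libraries, -0.88 (adjusted p = 0.0293, limma) without WT 2 and -1.92 (adjusted p = 0.0317, limma) without WT 1.

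Complex III has a single subunit from this genome, cytochrome b, which carries electrons between its quinone sites. mt-Cytb (chrM:14145-15288) stood at 11617, 11469 and 11377 FPKM in GSH, against 16469, 16510 and 16216 FPKM in WT. The groups were far apart for their spread, with a change of -0.51 (SE 0.055, adjusted p = 0.0021, limma). None of its 50-base windows was found unchanged in an annotated nuclear transcript. Its copy Gm11410 held 1 read in GSH 2 and 1 read in WT 2 and 0 in the other libraries. The SD of mt-Cytb was 1.05% of the mean in GSH and 0.970% in WT, against 0.184% and 0.158% that counting alone would give.

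All 3 complex IV genes, which encode the catalytic core of cytochrome c oxidase, were lower in GSH. mt-Co1 (chrM:5328-6872), the most abundant gene of the table, stood at 13690, 13377 and 13525 FPKM in GSH and 19297, 19085 and 19612 FPKM in WT, a change of -0.51 (SE 0.057, adjusted p = 0.0022, limma). Its libraries did not overlap and lay close together within each group. mt-Co3 (chrM:8607-9390) stood at 197, 163 and 195 FPKM in GSH, against 559, 365 and 357 FPKM in WT, a change of -1.18 (SE 0.18, adjusted p = 0.0047, limma). WT 1 stood above the other libraries, and without it the change was -0.97 (adjusted p = 0.0110, limma).

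mt-Co2 (chrM:7013-7696) stood at 1532, 1118 and 1943 FPKM in GSH, against 4208, 3663 and 2209 FPKM in WT. The groups did not overlap, but the highest GSH library lay close to the lowest WT library. Its change was -1.12 (SE 0.29, adjusted p = 0.0249, limma), with adjusted p of 0.0608 to 0.0747 (limma) when WT 1, WT 2, GSH 1 or GSH 2 was left out. Among GSH 2, GSH 3 and WT 3 its change was -0.58, and among GSH 1, WT 1 and WT 2 it was -1.36.

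Neither ATP synthase gene passed the threshold. mt-Atp8 (chrM:7766-7969), which encodes a small membrane subunit, stood at 184, 157 and 159 FPKM in GSH, against 204, 295 and 185 FPKM in WT. The groups were separated only narrowly, with a change of -0.42 (95% interval -0.84 to -0.01, adjusted p = 0.0970, limma). With voom on recovered reads its adjusted p was 0.0322 (limma). mt-Atp6 (chrM:7927-8607), which encodes the proton channel subunit and overlaps the end of mt-Atp8, stood at 1296, 709 and 822 FPKM in GSH and 1450, 1050 and 1050 FPKM in WT. GSH 1 overlapped the WT libraries, and the change was -0.36 (95% interval -0.94 to 0.21, adjusted p = 0.277, limma). Without GSH 1 it was -0.62 (adjusted p = 0.0409, limma).

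The protein-coding genes with the widest spread between replicates were among those copied almost whole, mt-Nd3 in GSH and mt-Nd4l in WT. The SD of the 5 genes copied almost whole was between 10.3% (mt-Co3) and 74.5% (mt-Nd3) of the mean in GSH and between 12.5% (mt-Nd3) and 77.9% (mt-Nd4l) in WT. The 6 protein-coding genes copied less in annotated transcripts reached at most 11.4% in GSH (mt-Nd6) and 25.9% in WT (mt-Atp8). mt-Atp8 lies between mt-Co2 and mt-Atp6, whose copies Gm28661 (from chr1:24614885) and Gm10925 (up to chr1:24614651) are neighbours. Whether an unannotated copy of mt-Atp8 lies between them was not searched. Counting alone would give mt-Co2 only 0.651% in GSH and 0.453% in WT. The part of nuclear copies in this spread was not tested.

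**Figure D3:**
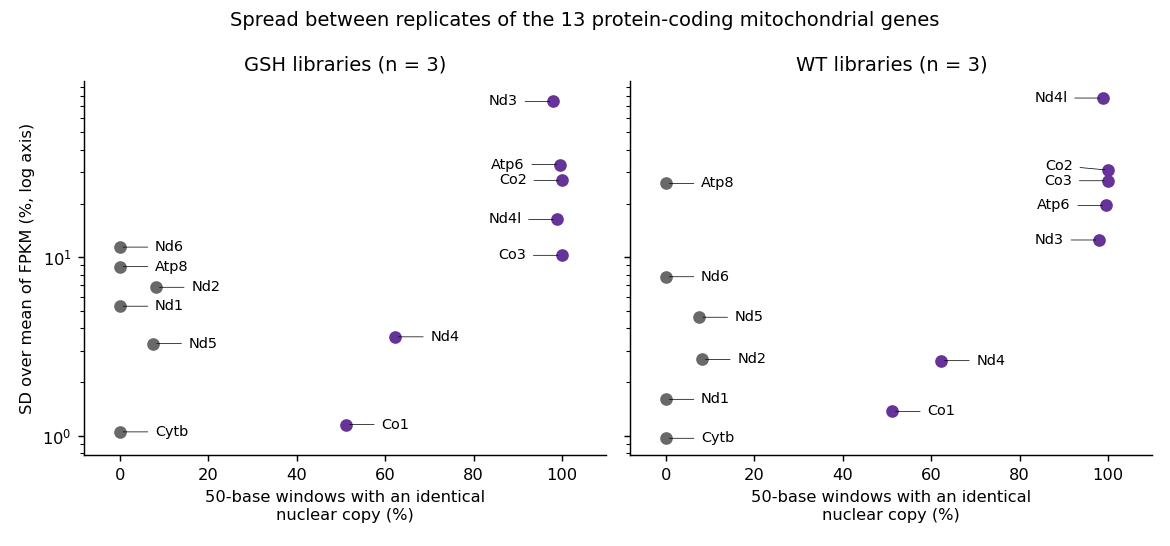
SD as a percent of the mean FPKM on a log axis against the share of 50-base windows with an identical nuclear copy, for the 13 protein-coding genes in GSH (left) and WT (right), n = 3 each. Shares count annotated transcripts only, and purple points have 50% or more. The 5 genes copied almost whole stand at the right, at 10.3% or more in GSH and 12.5% or more in WT. Of the other genes only mt-Nd6 in GSH and mt-Atp8 in WT reach these values.

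The annotated copies on chromosome 1 carried many reads themselves. Gm10925, the copy of mt-Atp6, averaged 594 ± 74.3 FPKM in GSH and 1121 ± 388 FPKM in WT (SD, n = 3 each). Of the reads of this pair, 34.3%, 44.3% and 39.5% were on the copy in GSH, against 51.6%, 43.3% and 48.7% in WT. Gm28661, the copy of mt-Co2, averaged 392 ± 67.8 FPKM in GSH and 651 ± 26.4 FPKM in WT. It held 23.3%, 23.2% and 15.9% of the pair's reads in GSH and 12.9%, 14.9% and 23.5% in WT, ranges that overlap.

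Gm28437, which was identical to mt-Co3 in the sequences shown, averaged 131 ± 6.36 FPKM in GSH and 186 ± 7.70 FPKM in WT, and held 39.4% to 44.2% of the pair's reads in GSH and 25.6% to 33.7% in WT. Gm28438 held 37.6%, 60.7% and 62.0% of the reads it shared with mt-Nd3 in GSH and 59.5%, 55.6% and 54.7% in WT. The low share was that of GSH 1, the library in which mt-Nd3 was highest. For mt-Nd4l the copy Gm10222 held 26.8% to 37.7% of the pair's reads in GSH and 13.6% to 36.9% in WT, with the lowest share in WT 2, where mt-Nd4l was highest. The copies of mt-Nd4 and mt-Co1, Gm28439 and Gm29216, held at most 1.03% and 0.783% of their pairs' reads in GSH and at most 1.44% and 0.663% in WT.

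The chromosome 1 copies were lower in GSH as well. All 7 of them passed the threshold as lower, with log2 changes between -0.46 (Gm29216, adjusted p = 0.0163, limma) and -0.90 (Gm10222, adjusted p = 0.0018, limma). Of the tested copies elsewhere, Gm13340 (-0.67, adjusted p = 0.0012, limma) and Gm13341 (-0.53, adjusted p = 0.0161, limma) on chromosome 2 were also lower, and Gm13339 (-0.45, adjusted p = 0.0775, limma) and Gm4076 (-0.0035, adjusted p = 0.985, limma) were not called. Since the chromosome 1 copies share sequence with the members and how the authors assigned reads to such copies is not given in the sources used here, reads of a member and of its copy cannot be told apart, and the split of each pair is uncertain. When the reads of each pair were summed, 14 members were called lower. The summed change was -0.94 for mt-Co3 (adjusted p = 0.0039, limma), -1.05 for mt-Co2 (adjusted p = 0.0159, limma), -1.35 for mt-Nd4l (adjusted p = 0.0359, limma), -0.58 for mt-Atp6 (adjusted p = 0.0900, limma) and -0.39 for mt-Nd3 (adjusted p = 0.299, limma).

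The tRNA genes were covered thinly and unevenly. All 18 listed tRNA genes together had 2066, 1196 and 1154 reads in GSH, against 1981, 1677 and 1912 in WT. Scaled to the library totals this was 68.5, 63.3 and 62.3 in GSH and 90.2, 82.6 and 89.1 reads in WT per 1000000 reads, without overlap. Most of these were on mt-Tp, with 50.35, 50.44 and 46.46 in GSH and 72.1, 67.3 and 71.3 in WT. The rest of the total overlapped between the groups. Of the 14 tested, 3 were lower in GSH, 0 higher and 11 not called, with a median log2 change of -0.19. The 3 are 21.4% of those tested, against 16.4% of all genes, from which nothing is read. The tRNA genes on which these results turn are shown from the same annotation, from 5′ to 3′, with their anticodons in capitals.
mt-Tp: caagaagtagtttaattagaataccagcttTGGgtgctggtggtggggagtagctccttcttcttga
mt-Ty: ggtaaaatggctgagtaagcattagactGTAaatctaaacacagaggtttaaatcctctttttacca
mt-Tr: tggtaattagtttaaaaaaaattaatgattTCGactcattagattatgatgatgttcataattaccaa
mt-Tn: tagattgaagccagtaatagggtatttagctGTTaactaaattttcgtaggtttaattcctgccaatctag
mt-Tc: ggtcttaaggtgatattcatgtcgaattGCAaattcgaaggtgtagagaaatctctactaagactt

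**Figure D4:**
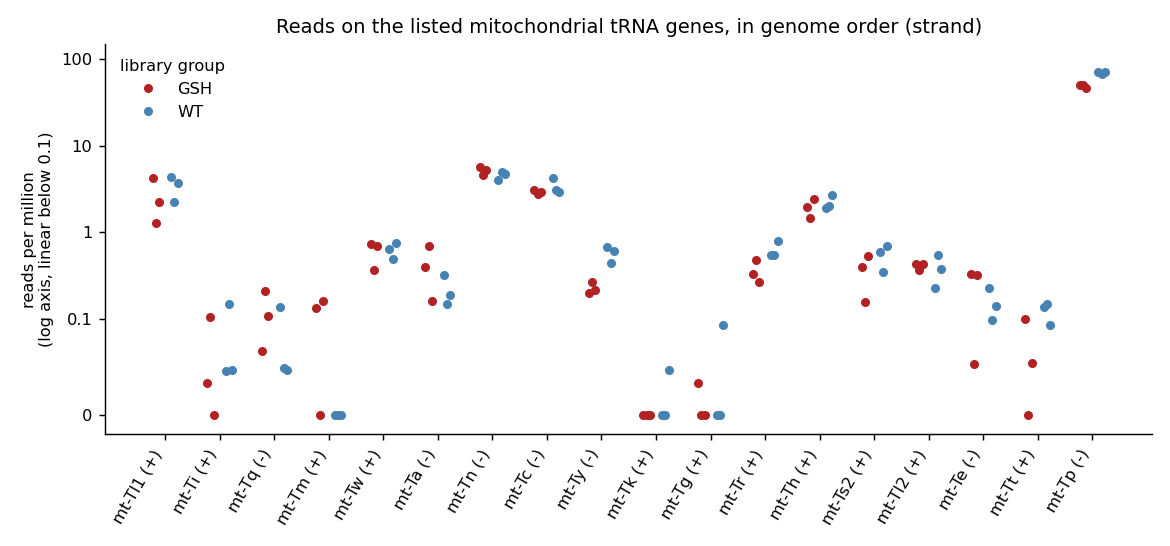
Reads scaled to 1000000 library reads on the 18 listed mitochondrial tRNA genes in genome order with their strand, on an axis that is logarithmic above 0.1 and linear below; points are libraries, with GSH in red left of WT in blue (n = 3 each). mt-Tp stands above all others in every library.

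mt-Tp (proline tRNA, chrM:15356-15422, - strand) is the last annotated gene before the control region, where mitochondrial transcription starts. It stood at 751, 753 and 693 FPKM in GSH, against 1076, 1004 and 1064 FPKM in WT, from 861 to 1583 reads. Its groups lay well apart, with a change of -0.52 (SE 0.048, adjusted p = 0.0018, limma). mt-Ty (tyrosine tRNA, chrM:5260-5326, - strand) had 6, 5 and 4 reads in GSH and 15, 9 and 13 reads in WT, or 2.97, 3.95 and 3.22 FPKM in GSH and 10.2, 6.62 and 9.05 FPKM in WT. Although no library overlapped and its change was -1.12 (SE 0.15, adjusted p = 0.0035, limma), it rests on 15 reads in GSH and 37 in WT, and its SD of 15.1% of the mean in GSH and 21.2% in WT was smaller than the 44.7% and 28.5% that counting alone would give.

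mt-Tr (arginine tRNA, chrM:9808-9875, + strand) had 10, 9 and 5 reads in GSH and 12, 11 and 17 reads in WT, a change of -0.71 (SE 0.21, adjusted p = 0.0359, limma). In FPKM its groups did not overlap, but its adjusted p was 0.0555 to 0.0935 (limma) without WT 1, WT 2, WT 3, GSH 1 or GSH 3 and 0.0708 (limma) with voom on recovered reads. mt-Tn (chrM:5089-5159) and mt-Tc (chrM:5192-5257), the asparagine and cysteine tRNA genes on the - strand, flank a gap of 32 bases that is known as the origin of light-strand replication. mt-Tn stood at 79.4, 64.9 and 73.7 FPKM in GSH and 57.1, 70.1 and 66.3 FPKM in WT, and mt-Tc at 46.2, 42.5 and 44.2 FPKM in GSH and 64.9, 47.0 and 43.8 FPKM in WT. Both overlapped between groups, with changes of 0.17 (95% interval -0.06 to 0.40, adjusted p = 0.212, limma) and -0.20 (95% interval -0.54 to 0.13, adjusted p = 0.285, limma).

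The reads on mt-Tl1 and mt-Th overlapped between the groups. mt-Tl1, a leucine tRNA gene beside mt-Rnr2, had 129, 24 and 42 reads in GSH and 95, 46 and 79 in WT (-0.50, adjusted p = 0.408, limma). The histidine tRNA gene mt-Th had 60, 28 and 45 reads in GSH and 42, 41 and 58 in WT (-0.18, adjusted p = 0.515, limma). The other tRNA genes had at most 22 reads in any library, and their changes fell on both sides of 0. mt-Ta (0.64), mt-Tq (0.41), mt-Te (0.30) and mt-Tl2 (0.15) lay above 0 and mt-Tt (-0.79), mt-Ts2 (-0.58) and mt-Tw (-0.09) below, with 0 of these 7 called. Without GSH 1, mt-Tt was called lower (-1.09, adjusted p = 0.0362, limma). Of the genes under the filter, mt-Ti had 3 reads in GSH and 5 in WT, mt-Tk had 0 reads in GSH and 1 in WT, and mt-Tg had 1 in GSH and 2 in WT, over 67592433 reads in GSH and 63699189 reads in WT. mt-Tm had 4, 0 and 3 reads in GSH and 0 in each WT library, where a count of 0 allows up to 3 reads. With so few reads these genes were not tested. Members on the strand of mt-Nd6 and mt-Tp took 0.753%, 0.683% and 0.652% of the mitochondrial reads in GSH and 0.653%, 0.688% and 0.618% in WT, which overlap.

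Most of the calls among nuclear genes of the same complexes were in the other direction. Of 74 tested nuclear subunits of oxidative phosphorylation, 27 were higher in GSH, 2 lower and 45 not called (median log2 change 0.09). These are 36.5% higher and 2.70% lower, where 20.6% of all genes tested were called higher and 16.4% lower. With FPKM rescaled to the reads outside the mitochondrial genome, 23 were higher and 3 lower (median 0.06). The counts were 24 and 2 under relative log expression scaling and 24 and 4 with voom on recovered reads. All 4 subunits of complex II, succinate dehydrogenase, which has no subunit from the mitochondrial genome, were higher, with Sdhc at 18.2 ± 0.249 FPKM in GSH and 14.8 ± 0.544 FPKM in WT (SD, n = 3 each; 0.28, adjusted p = 0.0026, limma). For ATP synthase, 8 of 15 nuclear subunits were higher and 0 lower, among them the catalytic subunit Atp5b with 334 ± 8.98 FPKM in GSH and 275 ± 7.99 FPKM in WT (0.28, adjusted p = 0.0030, limma). In complex I, 9 of 35 (25.7%) were higher and 2 lower, with Ndufa8 at 0.41 (adjusted p = 0.0018, limma) and Ndufab1, also the mitochondrial acyl carrier protein, at -0.21 (adjusted p = 0.0098, limma). Complex III had 4 of 9 higher and complex IV 2 of 11 (18.2%), with 0 lower in both, so that the higher shares of complexes I and IV were near that of all genes.

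**Figure D5:**
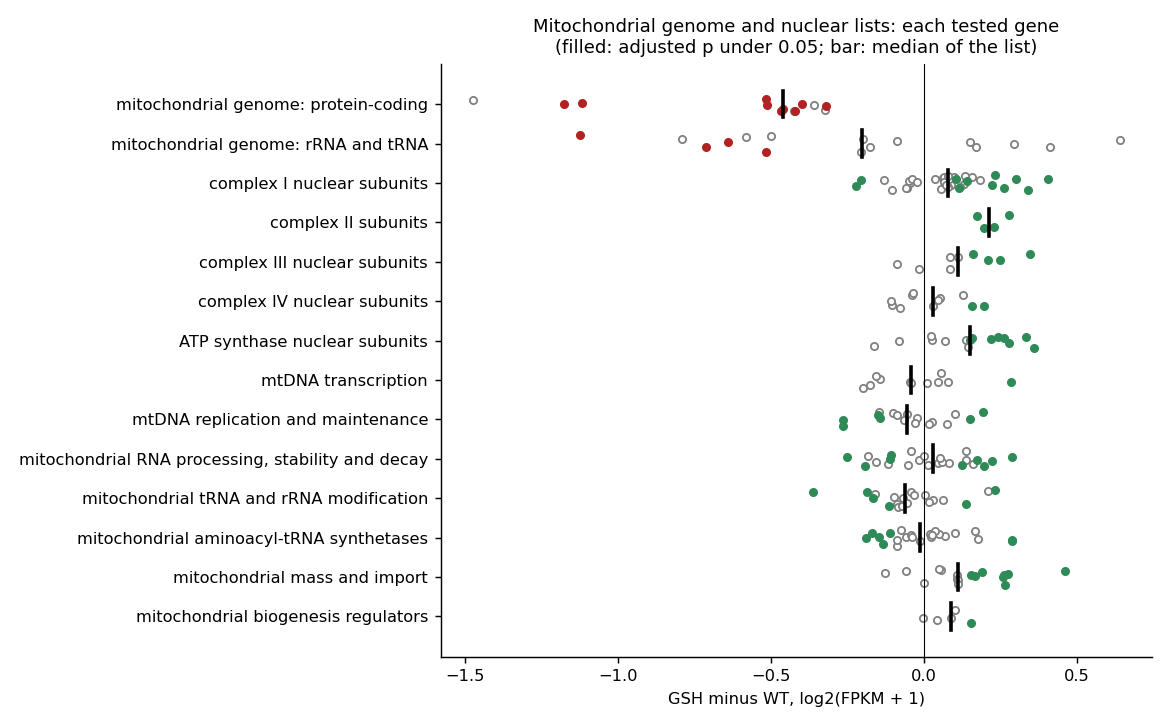
GSH minus WT on the log2(FPKM + 1) scale for each tested gene of the mitochondrial genome (top 2 rows) and of 12 lists of nuclear genes of the mitochondrial system. Filled points passed an adjusted p of 0.05 (limma) and bars are medians; the protein-coding mitochondrial genes lie at -0.32 or below, and the nuclear genes lie between -0.36 and 0.46.

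For the nuclear factors that copy and handle mitochondrial RNA, calls fell in both directions or were few. Of all genes tested, 20.6% were called higher and 16.4% lower. The higher and lower shares were 9.09% and 0% for transcription and 20.8% and 16.7% for RNA processing, stability and decay. They were 10% and 20% for the modification list and 8.70% and 21.7% for the synthetase list. Nothing is read from these shares. Of 11 tested genes of mitochondrial transcription 1 passed, Mrpl12, which is also a ribosomal protein (0.29, adjusted p = 0.0095, limma). Polrmt, the mitochondrial RNA polymerase, did not pass (-0.14, SE 0.053, adjusted p = 0.0738, limma), but was called lower with FPKM rescaled to the reads outside the mitochondrial genome (-0.18, adjusted p = 0.0386, limma), under relative log expression scaling (-0.16, adjusted p = 0.0434, limma) and with voom on recovered reads (-0.18, adjusted p = 0.0116, limma). Mterf2, of the transcription list, was called lower under the first (-0.23, adjusted p = 0.0370, limma) and the second (-0.21, adjusted p = 0.0419, limma), so that the list then held 2 lower genes in both and 1 with voom. Among 24 genes of RNA processing, stability and decay, 5 were higher and 4 lower (3 and 6 when rescaled, 4 and 6 under relative log expression scaling and with voom), with Hsd17b10, a subunit of mitochondrial RNase P, at 0.29 (adjusted p = 0.0035, limma) and Pnpt1, an RNA exonuclease, at -0.19 (adjusted p = 0.0056, limma). Among 20 tRNA and rRNA modification genes, 2 were higher and 4 lower, and Mettl17, a factor of the small mitochondrial ribosomal subunit, was lowest at -0.36 (adjusted p = 0.0016, limma). Of 23 genes of the aminoacyl-tRNA synthetase list 2 were higher and 5 lower. The list also holds Qrsl1, Gatb, Gatc and Mtfmt, which do not encode synthetases. Mtfmt was among the lower genes (-0.17, adjusted p = 0.01545, limma). Both higher genes, Kars and Gars, also serve the cytosol (0.29 each, adjusted p = 0.0020 and 0.0022, limma).

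Genes of mitochondrial DNA replication gave 2 higher and 4 lower of 17 (2 and 6 when rescaled and under relative log expression scaling, 0 and 6 with voom), with Polg2, the accessory subunit of the DNA polymerase, at -0.26 (adjusted p = 0.0037, limma). Among 17 genes of mitochondrial mass and import 8 were higher and 0 lower, which became 5 and 2 when rescaled, 6 and 0 under relative log expression scaling and 8 and 0 with voom. The higher genes included the matrix enzyme Cs (citrate synthase) with 66.8 ± 0.929 FPKM in GSH and 55.5 ± 1.09 FPKM in WT (SD, n = 3 each; 0.26, adjusted p = 0.0019, limma) and the outer membrane channel Vdac1 (0.26, adjusted p = 0.0026, limma). Of 5 tested biogenesis regulators 1 was higher, the transcription factor Nrf1 (0.15, adjusted p = 0.0223, limma). For replication 11.8% were higher and 23.5% lower, for mass and import 47.1% and 0%, and for the biogenesis regulators 20% and 0%. Over all genes tested 20.6% were higher and 16.4% lower. Over all 191 tested genes of the 12 lists 48 (25.1%) were higher and 19 (9.95%) lower. When rescaled the split was 39 higher and 30 lower, and over all genes tested it was 42.8% higher among the called genes in place of 55.7%. Under that scaling, under relative log expression scaling and with voom on recovered reads, 13, 13 and 15 mitochondrial genes were lower and 0 higher. Rescaling and relative log expression each ended the call of Uqcrc1, a complex III subunit, and voom those of Slc25a33 and Top1mt, a pyrimidine nucleotide carrier and a DNA topoisomerase of mitochondria.

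No member could be set between Cas9 and Ctrl, since 0 mt- symbols were listed there. In that comparison, with 3 Cas9 libraries and 1 Ctrl library, 0 of 11407 genes passed limma at an adjusted p of 0.05 (a share of 0%), and 210 had an unadjusted p under 0.05.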

How the data were processed

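RNA-seq values of 10 of 12 samples were used. The authors deposited FPKM values per gene for each library; the unit was taken from the values, since the labels do not name it. The labels' protocols give Trizol extraction and an NEBNext Ultra RNA library kit. Per the submitters' processing notes, Bowtie2 2.2.3, HISAT2 2, HTSeq 0.6.0 and the build mm8 were named, with no roles; strand handling and the treatment of reads that match several places are not given in the sources used here. Coordinates and sequences are those of the GENCODE M21 annotation (GRCm38), as the files hold none; they were not converted.

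FPKM multiplied by merged-exon length and library total gave whole reads for 97.1% to 97.2% of genes above 0 (within 0.05 read). The test was limma 3.58.1 (R 4.3.3): lmFit and eBayes with a trend on log2(FPKM + 1), group as the only term, two-sided, Benjamini-Hochberg over all genes whose FPKM averaged at least 1, which were 12283 genes in the GSH and WT table and 11407 in the Cas9 and Ctrl table. Changes are GSH minus WT on this log2(FPKM + 1) scale and understate those of low genes. The script was tested on simulated data. Nuclear copies were sought with blastn 2.17.0 (word size 20). Every listed member is named; of each nuclear list, the rule named the 4 genes with the smallest p, of which some are printed. Some copies are not reported here. The members and lists were chosen with earlier results of these data known. Alternatives covered pseudocounts of 0.1 and 5, filters, scalings, voom with TMM factors on recovered reads, the replicate number as a block, a term for a set of libraries and each library left out.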

Additional observations from a re-analysis of the deposited data

How the results depend on the processing

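Of 524 recomputed member values, 458 kept their side of the threshold, 51 lost and 15 gained the call, and 0 called values changed sign. Some values that were not called did change sign. The change of mt-Nd3 was -0.32 with all libraries, 0.01 without GSH 2 and from -1.05 to 0.878 over all alternatives. That of mt-Tl1 ran from -1.08 to 0.439 and that of mt-Atp6 from -0.615 to 0.0709. With no filter 4 members were lower (mt-Rnr1, mt-Ty, mt-Co3 and mt-Tp) and 44 genes of the nuclear lists were called; more genes are then tested, and the cause was not tested further. Left-out libraries gave 11 to 14 called members, 47 to 54 of the nuclear lists and 2998 to 3671 of all genes, against 4547 with all libraries. Without WT 1 the count over all genes was lowest. Alternatives added after seeing the data were a variance prior without a trend, summed reads of copies and the 2 sets of libraries. Within GSH 2, GSH 3 and WT 3, 0 genes, 0 members and 0 nuclear-list genes were called, and within GSH 1, WT 1 and WT 2, 4, 0 and 0; each has fewer samples.

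With a replicate block 15 members, 55 nuclear-list genes and 3867 genes were called. The numbers were not taken as pairs: deviations of same-numbered libraries correlated at 0.479, -0.107 and 0.209 across 12283 genes, and not every library correlated best with its own number. For Cas9 against Ctrl no paired analysis was possible because the libraries used share only 1 number, rescaling was not run as no member is listed, and every alternative run gave 0 calls.

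The share of reads in members was 5.90% in GSH and 8.32% in WT. As a share of FPKM it was 15.3% and 21.3%, for protein-coding members 5.76% and 8.15%, and without the 7 copied genes 3.30% and 4.55%. Low read counts limit the results of most tRNA genes, and the cause of these low counts was not tested.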
